A study of Mus musculus with 9 samples.

Results

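The Cyp4a fatty acid hydroxylases of mouse liver described here were the 4 paralogous genes Cyp4a10, Cyp4a14, Cyp4a12a and Cyp4a12b. They were found by gene name among the 26345 entries of the gene table that held a known transcript and a name. The names matched 5 rows, because a second row called Cyp4a10 held only an assembled transcript, which was at 0 FPKM in 7 of the 9 libraries and at 0.56 in AF replicate 2 and 1.65 in AF with MNA replicate 3. All values below are from the 4 rows with annotated transcripts. The genes were chosen with their levels in these libraries already known, so their levels are described with their spread and carry no test.

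Livers of mice labelled as 8 weeks of age, and described in the methods as male C57BL/6J for PF and AF, were taken after 5 weeks of feeding, with 3 libraries in each group. The pair-fed mice (PF) received an isocaloric liquid diet without alcohol. The alcohol-fed mice (AF) received the Lieber-DeCarli liquid diet, a chronic feeding model in which the alcohol content is raised in steps. The mice called AF with MNA had the same alcohol diet and daily intraperitoneal injections of MNA, an abbreviation that the labels leave unexplained, at 50 mg/kg. The strain was labelled C57BL/6 in PF and AF but C57BL/7, C57BL/8 and C57BL/9 in the 3 MNA libraries, no sham injection of AF mice is mentioned, and separate animals are implied only by replicate numbers. Any p therefore measures the spread between these libraries.

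Enzymes of the Cyp4a subfamily are microsomal cytochromes P450 that hydroxylate the terminal (omega) carbon of fatty acids, which opens a route to dicarboxylic acids that peroxisomes shorten, and they convert arachidonic acid to 20-HETE. Cyp4a10 and Cyp4a14 are classical targets of the fatty acid receptor PPAR alpha and are induced by fasting, fibrates and lipid overload. Cyp4a12a and Cyp4a12b are male-predominant, being maintained by androgen and by the pulsatile, male pattern of growth hormone that signals through STAT5B.

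The 4 genes lay together on chromosome 4. In the mouse build GRCm38 (GENCODE M21), Cyp4a12a (ENSMUSG00000066071) occupied chr4:115299046-115332815 and Cyp4a12b (ENSMUSG00000078597) chr4:115411624-115439034, both on the plus strand. Cyp4a14 (ENSMUSG00000028715) occupied chr4:115486200-115496142 on the minus strand and Cyp4a10 (ENSMUSG00000066072) chr4:115518264-115533649 on the plus strand. The cluster spanned 235 kb, and the gaps between neighbours were 78.8, 47.2 and 22.1 kb. Cyp4a14 and Cyp4a10 were thus the closest pair and pointed away from each other, with the starts of their transcription facing the gap of 22.1 kb. The genes Cyp4a29, Cyp4a30b, Cyp4a31 and Cyp4a32 lay beside or between them.

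The coding sequences showed how far reads of one paralog could be told from those of another. The stretches below come from the annotated coding sequence around the codon of the cysteine that binds the heme iron, the centre of every P450 active site, and capitals mark the 9 of 63 positions that were not identical in all 4 genes. Each stretch crosses the junction of exons 11 and 12. It covers coding bases 1336 to 1398 of Cyp4a10 (chr4:115529493-115532567), 1330 to 1392 of Cyp4a14 (chr4:115487275-115489814), 1333 to 1395 of Cyp4a12a (chr4:115328977-115331870) and 1333 to 1395 of Cyp4a12b (chr4:115435231-115438093).
Cyp4a10: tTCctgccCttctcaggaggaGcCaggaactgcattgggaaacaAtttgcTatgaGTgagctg
Cyp4a14: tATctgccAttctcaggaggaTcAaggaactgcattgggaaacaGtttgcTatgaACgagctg
Cyp4a12a: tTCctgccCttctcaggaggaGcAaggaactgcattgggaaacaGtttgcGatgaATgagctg
Cyp4a12b: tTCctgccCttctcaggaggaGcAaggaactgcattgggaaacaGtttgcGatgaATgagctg
Cyp4a12a and Cyp4a12b had 0 differences here, Cyp4a10 differed from either at 4 positions, and Cyp4a14 differed from Cyp4a10 at 8 and from the Cyp4a12 pair at 6.

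Over the whole coding sequence of 1527 bases, Cyp4a12a and Cyp4a12b differed at 23 bases, an identity of 98.5%, and the longest run without a difference was 342 bases. Of all stretches of 100 bases of one, 41.5% occurred unchanged in the other. The window of 60 coding bases with the most differences between them is shown because it is where a coding read could best be assigned. Untranslated parts were not searched. It covers coding bases 624 to 683 across exons 5 and 6 (chr4:115326309-115326681 for Cyp4a12a and chr4:115432561-115432934 for Cyp4a12b), with the 4 differing positions in capitals.
Cyp4a12a: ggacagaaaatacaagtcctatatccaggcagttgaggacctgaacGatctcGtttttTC
Cyp4a12b: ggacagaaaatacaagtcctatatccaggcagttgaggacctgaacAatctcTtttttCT
The split of reads between these 2 genes is therefore uncertain, and their sum is the firmer quantity. Cyp4a10 and Cyp4a14 shared 76.8% of aligned coding bases and no coding stretch of 100 bases, so coding reads of that length could be told apart. Their untranslated parts were not compared. Cyp4a10 was closer to Cyp4a31 and Cyp4a32 (96.6% and 97.2%), which the table merges into 1 entry named Cyp4a32, and it shared 7.55% and 13.8% of stretches of 100 bases with them.

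**Figure D1:**
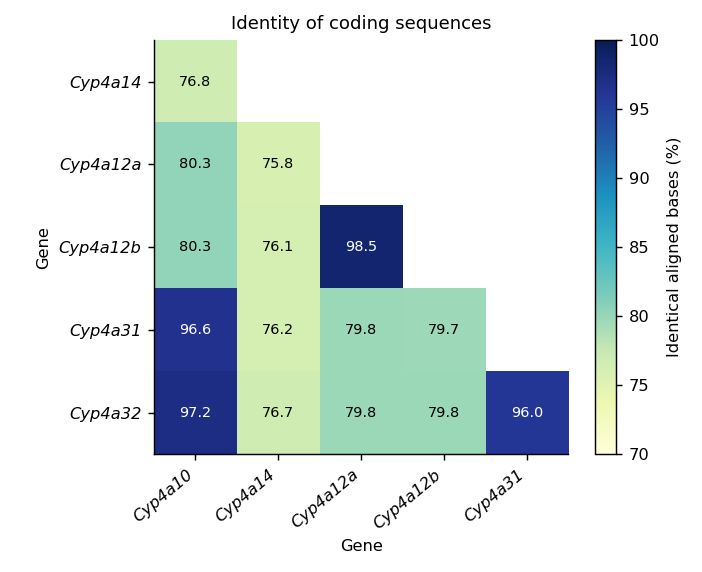
Share of identical bases (%) between the aligned coding sequences of the 4 Cyp4a genes and of Cyp4a31 and Cyp4a32, in GENCODE M21. The Cyp4a12 pair (98.5%) and the trio of Cyp4a10, Cyp4a31 and Cyp4a32 (96.0% to 97.2%) stand out from the remaining pairs, which lie between 75.8% and 80.3%.

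The deposited gene levels are FPKM, the number of sequenced fragments scaled to transcript length and library size. Relative depth, read from the constant between read coverage and FPKM in each library, was 6.16 to 6.82 in PF, 6.19 to 7.24 in AF and, with MNA, 5.84 to 8.30, and no read counts of genes were used. Pearson correlations between replicates over genes were 0.920 to 0.942. The summed FPKM of lncRNA transcripts inside introns was 3254 to 4937 in PF but 9433 in AF replicate 3 and 8934 in AF with MNA replicate 1, against 2477 to 4239 in the other libraries of those groups. The 5 hepatocyte markers summed to 13258 to 20435 FPKM. Sinusoidal endothelial markers were 17.3 to 21.5 FPKM in PF, 21.5 to 32.2 in AF and, with MNA, 27.0 to 30.4. Kupffer cell markers ranged from 43.7 to 79.7 FPKM, stellate cell markers from 24.1 to 37.4 and bile duct markers from 1.14 to 2.46. None of the markers was at 0, and the part of cell mixture or intron signal in the results was not tested.

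The 4 genes parted in opposite directions between AF and PF. Cyp4a14 was 3.84-fold and Cyp4a10 1.75-fold higher in AF than in PF on the group means, whereas Cyp4a12a was 8.77-fold and Cyp4a12b 11.8-fold lower. All 4 passed the minimum of 0.5 FPKM in each group's mean, so none was tested only through the group in which it was high. Libraries of PF and AF did not overlap for 3 of the 4 genes. Over the 12268 genes tested, 18.3% had groups that did not overlap, 8.18% with AF higher and 10.1% with AF lower, and nothing is read from the count of members because they were chosen on these levels. In bulk liver, fewer cells that make a transcript and less transcript per cell cannot be told apart.

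Cyp4a14, a gene strongly induced by PPAR alpha agonists, was at 62.59, 45.73 and 28.93 FPKM in PF (45.75 ± 16.8, SD, n = 3). It reached 97.42, 234.09 and 195.35 FPKM in AF (176 ± 70.4). All AF libraries lay above all PF libraries, and the log2 ratio of the means was 1.94. AF replicate 1 was the lowest of its group and without it the log2 ratio was 2.23. The range over all single libraries left out was 1.68 to 2.23.

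Cyp4a10, the second PPAR alpha-responsive gene and the most abundant member in every library, was at 120.55, 182.14 and 100.14 FPKM in PF (134 ± 42.7). In AF its level was 141.80, 287.54 and 275.44 FPKM (235 ± 80.9). The groups overlapped, because AF replicate 1 lay below PF replicate 2. The log2 ratio was 0.81, which did not reach the study's fold threshold of 1, and it ranged from 0.63 to 1.09 with single libraries left out. It passed 1 without PF replicate 2 (1.09) and without AF replicate 1 (1.07).

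Cyp4a12a, regarded as the main 20-HETE-forming P450 of the mouse, was at 81.90, 104.80 and 51.45 FPKM in PF (79.4 ± 26.8). It was at 2.97, 10.73 and 13.46 FPKM in AF (9.05 ± 5.44). The highest AF library was below the lowest PF library by a wide margin. The log2 ratio was -3.13, between -3.53 and -2.71 with single libraries left out.

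Cyp4a12b, its near-identical neighbour, was at 22.21, 34.20 and 16.34 FPKM in PF (24.25 ± 9.10). It was at 0.99, 2.71 and 2.45 FPKM in the AF libraries (2.05 ± 0.927), again with no overlap. The log2 ratio was -3.56, between -3.82 and -3.23 with single libraries left out. The sum of both Cyp4a12 genes, which does not depend on how reads were split between them, was 104, 139 and 67.8 FPKM in PF against 3.96, 13.4 and 15.9 FPKM in AF.

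**Figure D2:**
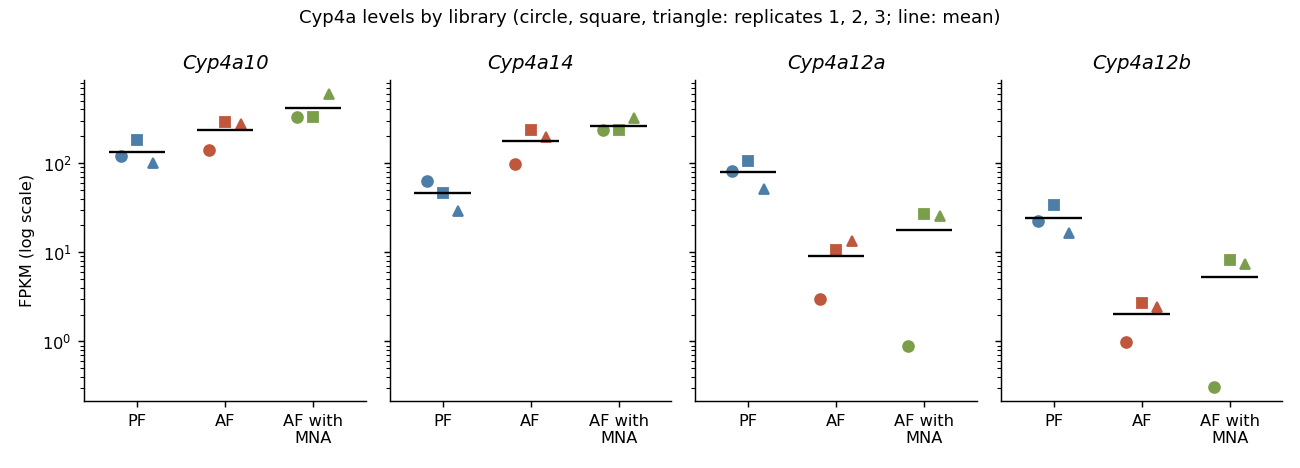
FPKM (log scale) of Cyp4a10, Cyp4a14, Cyp4a12a and Cyp4a12b in each library of PF, AF and AF with MNA, with circle, square and triangle for replicates 1, 2 and 3 and a line at the group mean. The Cyp4a12 genes drop from PF to AF, with group means of 79.4 and 9.05 FPKM for Cyp4a12a, while Cyp4a14 lies higher in AF, and AF with MNA replicate 1 is far below its group for both Cyp4a12 genes.

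The composition of the family changed more than its total. The 4 genes summed to 287, 367 and 197 FPKM in PF and to 243, 535 and 487 FPKM in the AF libraries, so the totals of the groups overlapped. The Cyp4a12 pair made up 36.2%, 37.9% and 34.4% of that sum in PF. In AF the pair made up 1.63%, 2.51% and 3.27%. The share of Cyp4a14 was 12.5% to 21.8% in PF and 40.1% to 43.7% in AF, and the share of Cyp4a10 was 42.0% to 50.9% in PF and 53.7% to 58.3% in AF. The ratio of Cyp4a10 to Cyp4a14 was 1.93, 3.98 and 3.46 in PF but 1.46, 1.23 and 1.41 in AF, whose libraries lay closer together.

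The order of levels was accordingly different between groups. In all 3 PF libraries Cyp4a10 was highest and Cyp4a12b lowest, and Cyp4a12a exceeded Cyp4a14. In all AF and all AF with MNA libraries the order was Cyp4a10, Cyp4a14, Cyp4a12a and Cyp4a12b. Cyp4a12a and Cyp4a12b kept a ratio of 2.84 to 5.49 over the 9 libraries.

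**Figure D3:**
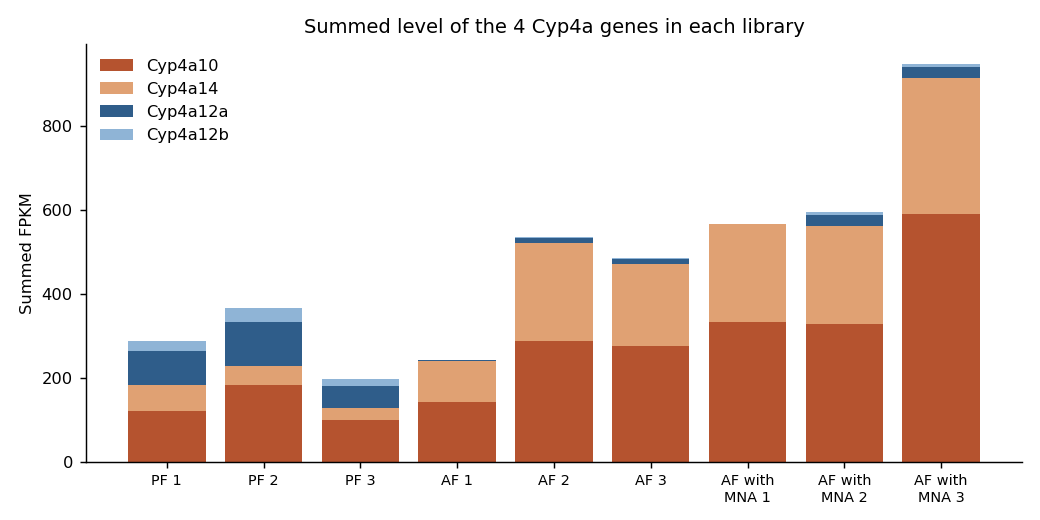
Summed FPKM of the 4 Cyp4a genes in each library, stacked by gene (bars start at 0). The Cyp4a12 genes (blue) form 34.4% to 37.9% of the bar in PF and at most 5.86% in the alcohol-fed libraries, and the tallest bar is AF with MNA replicate 3 at 949 FPKM.

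The comparison of AF with MNA against AF asked how the injected mice differed from mice on the same diet. It shares the AF libraries with the comparison above, so the results of both are not independent. Group means of all 4 genes were higher with MNA, and libraries failed to overlap only for Cyp4a10. Over the 12214 genes tested, 10.1% did not overlap, 5.53% with MNA higher and 4.58% with MNA lower, and nothing is read from the count.

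Cyp4a10 was at 333.13, 328.75 and 591.50 FPKM in AF with MNA (418 ± 150, SD, n = 3), each above every AF library. The log2 ratio to AF was 0.83, or 1.78-fold, and ranged from 0.49 without AF with MNA replicate 3 to 1.00 without AF replicate 2. Cyp4a14 was at 233.31, 232.63 and 324.17 FPKM (263 ± 52.7), where the lower libraries lay just under AF replicate 2. Its log2 ratio was 0.58, with overlapping groups, and was 0.29 without AF replicate 1. Both genes were higher in every MNA library than in any PF library. The share of all genes with that property was not computed, and nothing is read from it.

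The Cyp4a12 pair depended on a single MNA library. Cyp4a12a was at 0.88, 26.72 and 25.42 FPKM (17.7 ± 14.6) and Cyp4a12b at 0.31, 8.24 and 7.45 FPKM (5.33 ± 4.37). Replicate 1 was the lowest of all 9 libraries for both genes, and replicates 2 and 3 were above every AF library and below every PF library. The log2 ratio of the means was 0.97 for Cyp4a12a and 1.38 for Cyp4a12b, and without replicate 1 it was 1.53 and 1.94. As a difference of mean log2(FPKM + 1), which gives low libraries more weight, it was 0.34 and 0.67. Replicate 1 was also 1 of the 2 libraries with high intron signal (8934 FPKM), whose part in these values was not tested. The pair made up 0.210%, 5.86% and 3.47% of the family's summed FPKM of 568, 596 and 949.

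Within groups, the members did not rank the libraries in 1 order. PF replicate 3 was the lowest PF library and AF replicate 1 the lowest AF library for all 4 genes. Among the MNA libraries, however, replicate 3 was highest for Cyp4a10 and Cyp4a14, and replicate 2 for Cyp4a12a and Cyp4a12b. As a description over the 9 libraries, which share group structure and depth, Pearson's r of log2(FPKM + 1) was 0.906 between Cyp4a10 and Cyp4a14 and 0.981 between Cyp4a12a and Cyp4a12b. Across the pairs it was -0.32 and -0.37 for Cyp4a10 and -0.55 and -0.62 for Cyp4a14 with Cyp4a12a and Cyp4a12b.

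By the same measure among 12252 genes, the genes most like Cyp4a14 were Tatdn2 (0.954), the imprinted lncRNA Rian (0.952) and Tmem82 (0.949). Those most like Cyp4a10 were Tatdn2 (0.941), the lipid kinase Pik3c2g (0.935) and the acyl-CoA thioesterase entry Acot1 (0.911), which also holds Acot2. Cyp4a12a was most like Tbl2 (0.976), the branched-chain ketoacid dehydrogenase phosphatase Ppm1k (0.953) and Cfap97 (0.950). Cyp4a12b was most like the major urinary protein pseudogene Mup-ps19 (0.984), the entry Mup3, which also holds Mup20 (0.975), and the sterol carrier Scp2 (0.973). Rian stood at 0.34, 0.17 and 0.15 FPKM in PF, each under the minimum used for tests, against 1.13, 2.70 and 1.83 in AF. The paper also lists Rian as higher in AF by sequencing, but its qRT-PCR found no difference between PF and AF. Scp2 stood at 131.59, 146.48 and 110.44 FPKM in PF against 51.53, 67.14 and 52.88 in AF. Rian and Scp2 were picked by their correlation with a member over the same libraries. Their differences between PF and AF therefore follow in part from that choice, and nothing is read from them.

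Other genes of the pathways were read from lists. In each comparison a gene was called at an unadjusted p under 0.05 in limma with a log2 ratio of group mean FPKMs above 1 or below -1, the study's own threshold. AF against PF called 4.30% of all genes tested, 1.95% higher and 2.35% lower, and 0.326% at an adjusted p under 0.05 (0.179% higher and 0.147% lower). The median log2 ratio of all genes was -0.03. For an unadjusted p under 0.05 alone, the share of all genes was not computed, and nothing is read from such counts.

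Known PPAR alpha targets other than Cyp4a10 and Cyp4a14 centred on no difference between AF and PF. Of 33 listed, 30 had an entry of their own and 29 were tested, Eci2 being left out because its highest entry held only an assembled transcript, with 0 called higher and 1 lower, and their median log2 ratio was 0.00. The 1 gene called lower was Fabp1, the liver fatty acid-binding protein, at 77.1 ± 24.0 FPKM in PF and 34.9 ± 21.5 in AF (log2 ratio -1.14, limma adjusted p = 0.373), and it was not called without PF replicate 1 or 3 or AF replicate 1 or 2. The AF libraries differed among themselves in this list: replicate 1 was the lowest of its group for 21 of 30 targets and replicate 2 the highest for 21 of 30. Ehhadh, the peroxisomal bifunctional enzyme of beta-oxidation, was at 6.41, 90.99 and 11.55 FPKM in AF against 20.36, 9.59 and 9.09 in PF. Pdk4, the kinase that shuts off pyruvate dehydrogenase, was at 0.76, 23.97 and 1.67 FPKM in AF against 0.40, 0.27 and 0.24 in PF, and it passed the minimum only through AF, so that it had to be higher there. Without it the list's median was -0.02. Both peaked in AF replicate 2, and Ehhadh was within or below the PF range in AF replicates 1 and 3. The direction of the calls turned in 4 of the 6 fits that left out a library: 3 targets were called higher and 0 lower without AF replicate 1 (Acot1, Cd36 and Pdk4) or PF replicate 3 (Acot3, Acot4 and Cd36), and 1 higher and 0 lower without PF replicate 1 (Cd36) or AF replicate 2 (Pdk4). The turn without AF replicate 2 rested on Pdk4 alone, which had to be higher, so that fit carries no weight. Over all libraries, 5 of the 29 had an unadjusted p under 0.05 in limma, with no share of all genes at that cut to read it against. The receptor Ppara was at 9.54 ± 1.85 FPKM in PF and 10.2 ± 4.02 in AF (log2 ratio 0.09), and its partner Rxra at 26.8 ± 3.09 and 23.5 ± 3.89 (-0.19), neither called. The coactivator Ppargc1a was at 2.43 ± 0.756 FPKM in PF and 4.64 ± 1.94 in AF (0.93, below the fold threshold).

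With MNA, 4 of the 29 PPAR alpha targets were called higher against AF and 0 lower, where 1.98% of all 12214 genes were called, 1.03% higher and 0.950% lower. The median log2 ratio of the list was 0.42, with 27 of 29 above 0, and that of all genes was 0.01. The called genes were 3 acyl-CoA thioesterases, which free fatty acids from coenzyme A, and the acyl-CoA synthetase Acsl1, which does the reverse. Acot4 was at 6.08 ± 2.65 FPKM in AF and 20.2 ± 3.31 with MNA (log2 ratio 1.73), Acot3 at 4.38 ± 2.44 and 9.88 ± 0.843 (1.17), Acot1 at 9.63 ± 7.03 and 23.5 ± 3.32 (1.29), and Acsl1 at 20.2 ± 4.54 and 45.7 ± 19.9 (1.18). Of the 29, 12 had an unadjusted p under 0.05 in limma, with no share of all genes at that cut to read it against. None passed adjustment in limma (adjusted p = 0.388 for Acot4 and 0.940 for the others), as 0.0491% of all genes did (0.0164% higher and 0.0327% lower). The count of calls was 8 without AF replicate 2, 7 without AF with MNA replicate 1, 2 without AF with MNA replicate 2 or 3, and 1 without AF replicate 1. Ppara was at 13.1 ± 0.507 FPKM with MNA (log2 ratio 0.36, not called).

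Male-biased genes of the growth hormone axis were lower in AF, as the Cyp4a12 pair was. Of 16 listed genes, 14 had an entry of their own and 12 were tested. Cspg5 was below the minimum, and Cyp7b1, whose entry held only assembled transcripts, was not tested and stood at 11.46, 11.15 and 5.36 FPKM in PF against 1.08, 1.67 and 2.26 in AF. In AF, 9 of the 12 were called lower and 0 higher, 4 at an adjusted p under 0.05, and the median log2 ratio was -2.18. Hsd3b5 and Moxd1 passed the minimum of 0.5 FPKM only through PF, so that they had to be lower in AF. Of the other 10, 8 were called lower, 3 at an adjusted p under 0.05, and their median was -1.84. Elovl3, a fatty acid elongase, fell from 40.7 ± 11.98 to 2.93 ± 0.923 FPKM (log2 ratio -3.80, limma adjusted p = 0.0073). Hsd3b5, a steroid reductase of male liver, was at 17.3 ± 9.00 FPKM in PF and 0.120 ± 0.0557 in AF, given as values only. The pheromone carrier entry Mup3 fell from 2544 ± 376 to 405 ± 135 FPKM (-2.65, adjusted p = 0.0211) and the P450 gene Cyp2u1 from 11.4 ± 1.68 to 2.10 ± 0.797 FPKM (-2.45, adjusted p = 0.0283). The bile acid and organic anion transporter Slco1a1 (log2 ratio -2.04), the complement component C6 (-2.31), the coenzyme A hydrolase Nudt7 (-1.20) and Mup7 (-1.44) were called without passing adjustment (adjusted p = 0.114, 0.144, 0.211 and 0.381). The count of calls was 7 to 10 with single libraries left out. In those limma fits Elovl3 kept an adjusted p under 0.05. Those of Mup3 (0.0539 to 0.0891) and Cyp2u1 (0.0668 to 0.106) were above 0.05 unless the library left out was AF replicate 2. The log2 ratios of Cyp4a12a and Cyp4a12b, -3.13 and -3.56, lay between those of Mup3 and Elovl3.

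Female-biased genes of the same axis, which mouse liver expresses when growth hormone is continuous, are given by their values. Of 15 listed, 6 passed the minimum of 0.5 FPKM and all 6 were called higher in AF, but 4 of them passed only through AF and so had to be higher, and the count carries no weight for that reason. Cyp2b13 was listed at 0.00, 0.01 and 0.00 FPKM in PF and reached 4.77, 5.48 and 7.36 FPKM in AF. Cyp2b9 stood at 0.02, 0.01 and 0.15 FPKM in PF against 6.66, 3.33 and 30.72 in AF. For Cyp2a4 the PF libraries held 1.34, 1.22 and 1.66 FPKM and the AF libraries 41.73, 18.88 and 22.36 (log2 ratio 4.30, limma adjusted p = 0.00817). Cyp17a1, a steroid hydroxylase, was at 2.02, 5.38 and 7.75 FPKM in PF and 22.93, 7.24 and 18.85 in AF (log2 ratio 1.69, adjusted p = 0.359). Its groups overlapped, and it was not called without PF replicate 1, AF replicate 1 or AF replicate 3. Both had a PF mean above the minimum. Cux2, a transcription factor of female liver, had an AF mean of 1.36 FPKM.

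**Figure D4:**
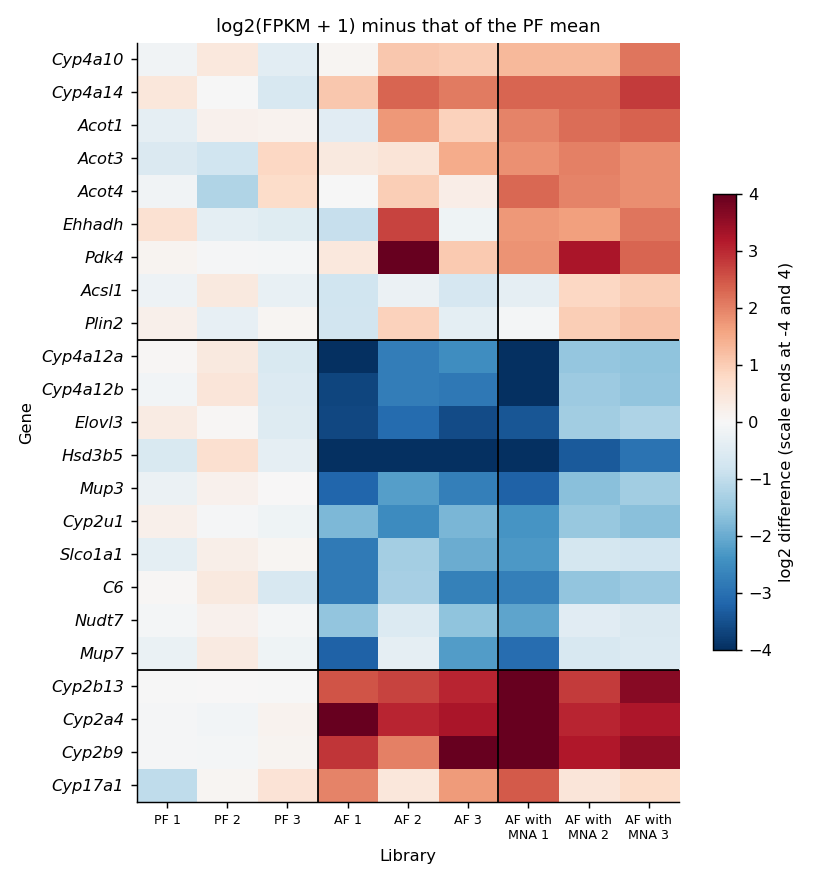
Difference of log2(FPKM + 1) from that of the PF mean in each of the 9 libraries (colour scale ends at -4 and 4) for the 4 Cyp4a genes beside genes of the PPAR alpha, male-biased and female-biased lists. Cyp4a12a and Cyp4a12b are blue in all alcohol-fed libraries like Elovl3 and Mup3, and values beyond either end of the scale share 1 colour, as for Cyp4a12a in replicate 1 of AF and of AF with MNA.

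AF with MNA replicate 1, the lowest library for the Cyp4a12 pair, was also at the end of its group for most genes of several lists. It was the lowest MNA library for 11 of 13 male-biased genes and the highest for 6 of 6 female-biased genes, counting those whose 9 libraries averaged 0.5 FPKM or more. It was also the lowest MNA library for 20 of 30 PPAR alpha targets and the highest for 3. In that library Cyp2b13 was at 25.53 FPKM, against 6.01 and 11.63 in the other MNA libraries, and Elovl3 at 2.93, against 14.79 and 16.80. AF replicate 1, the AF library with the lowest Cyp4a12 levels, was likewise lowest of its group for 10 of 13 male-biased genes. Over the 11 male-biased genes whose means reached the minimum in both PF and AF, Hsd3b5 and Moxd1 being left out, the median difference of log2(FPKM + 1) from that of the PF mean was -2.33 in AF with MNA replicate 1, and -1.38 and -1.23 in replicates 2 and 3. In AF replicates 1, 2 and 3 it was -2.83, -1.37 and -1.82. Between AF with MNA and AF, 1 of 10 male-biased genes tested was called higher, Elovl3 (2.93 ± 0.923 FPKM in AF and 11.5 ± 7.50 with MNA, log2 ratio 1.98, limma adjusted p = 0.940), and 0 lower. Without AF with MNA replicate 1 the count was 4, and it was 0 when any other library was left out. Of 7 female-biased genes tested, limma called 0, and 0 had an unadjusted p under 0.05.

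Growth hormone signalling genes were mostly uncalled. In AF against PF, 1 of 9 was called, the receptor Ghr, which fell from 14.6 ± 2.53 to 7.14 ± 3.58 FPKM (log2 ratio -1.03, limma adjusted p = 0.310) and was not called without PF replicate 1, AF replicate 1 or AF replicate 2. Stat5b, the transcription factor that carries the signal, was at 5.91 ± 0.561 and 5.68 ± 1.29 FPKM (-0.06). The list's median log2 ratio was -0.07. With MNA, Ghr was at 8.05 ± 2.33 FPKM (log2 ratio 0.17) and Stat5b at 5.53 ± 0.644 (-0.04), and the feedback inhibitor Cish was the 1 gene of 9 called, from 1.03 ± 0.332 to 2.22 ± 0.965 FPKM (1.11, adjusted p = 0.940). That call was lost in 8 of the 12 alternatives that gave it a value, among them those without AF replicate 2 or 3 and without AF with MNA replicate 2 or 3. Without AF replicate 2 the 1 gene called was Bcl6, a transcriptional repressor, which was lower with MNA (log2 ratio -1.29, limma adjusted p = 0.771).

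None of the other Cyp4 genes was called. Of 16 entries whose name starts with Cyp4, 8 were tested in AF against PF and 9 in AF with MNA against AF, and limma called 0 in either comparison, with 1 in each at an unadjusted p under 0.05 (Cyp4f14 in the first and Cyp4b1 in the second). The entry named Cyp4a32, the closest relative of Cyp4a10, was at 7.81, 11.68 and 8.20 FPKM in the PF libraries. The AF libraries held 6.48, 31.17 and 18.87 FPKM (log2 ratio 1.03, limma adjusted p = 0.625), with AF replicate 1 lowest as for Cyp4a10, and those with MNA 14.51, 16.33 and 17.33. Cyp4f14, a leukotriene omega-hydroxylase and the most abundant of them, was at 81.8 ± 6.08 FPKM in PF and 59.1 ± 8.38 in AF (-0.47), and at 69.5 ± 5.07 with MNA. Cyp4f15 was at 21.5 ± 1.92, 23.5 ± 1.45 and 27.0 ± 2.95 FPKM in PF, AF and AF with MNA, Cyp4f13 at 7.45 ± 2.11, 7.28 ± 1.79 and 6.98 ± 0.296, and Cyp4f17 at 2.70 ± 0.405, 4.56 ± 3.56 and 4.62 ± 0.623. The entry Cyp4v3, which merges 3 coding genes, had a log2 ratio of -0.35 in AF, and Cyp4b1, a P450 best known from lung, 0.45. With MNA, Cyp4b1 was at 5.19 ± 0.153 FPKM against 3.61 ± 1.01 in AF (0.52). Cyp46a1, the cholesterol 24-hydroxylase of another family that the name rule also takes, and Cyp4f16 were at means of 0.553 to 1.08 FPKM in AF and AF with MNA.

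**Figure D5:**
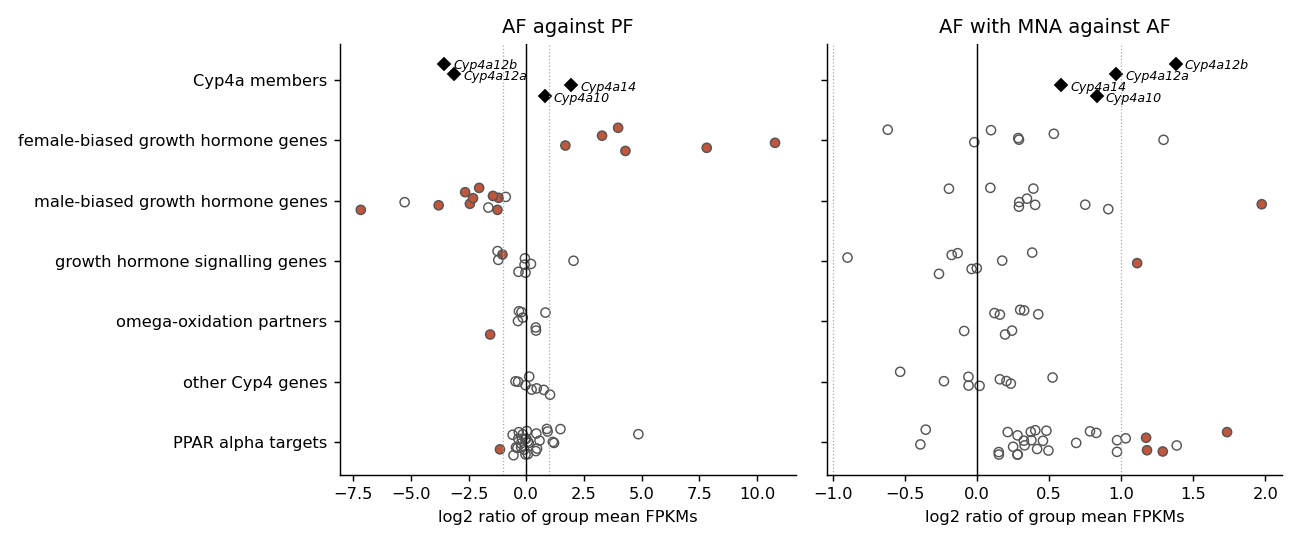
Log2 ratio of group mean FPKMs for the 4 Cyp4a genes (diamonds) and for each tested gene of the lists (circles, filled where called by the threshold), in AF against PF and in AF with MNA against AF, with dotted lines at -1 and 1 and different horizontal scales. In the left panel Cyp4a12a and Cyp4a12b lie among the male-biased genes (median -1.84 without Hsd3b5 and Moxd1), and the 1 PPAR alpha target to the right of Cyp4a14 is Pdk4, which passed the minimum only through AF.

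Partners of omega-oxidation were mostly uncalled. Of 8 listed genes, covering electron supply to P450 enzymes, steps after hydroxylation and the P450 gene Cyp2e1, Adh4, an alcohol dehydrogenase that also oxidizes omega-hydroxy fatty acids, was called lower in AF, from 78.8 ± 28.3 to 26.6 ± 5.68 FPKM (log2 ratio -1.57, limma adjusted p = 0.127), and 0 were called higher. By limma, 2 of the 8 had an unadjusted p under 0.05, Adh4 and Por, the reductase that passes electrons to P450 enzymes, which was at 91.0 ± 24.7 FPKM in PF and 162 ± 36.7 in AF (log2 ratio 0.83, adjusted p = 0.325, below the fold threshold). The list's median log2 ratio was -0.18. With MNA, limma called 0 of 8, with 0 at an unadjusted p under 0.05, and the median was 0.22.

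Noncoding transcripts at the cluster were sparse. Of 26083 lncRNA transcripts in the lncRNA table, 1 lay within the span of the 4 genes, an assembled single-exon transcript of 463 bases on the plus strand at chr4:115497982-115498444. It lay in the gap between Cyp4a14 and Cyp4a10, 1.84 kb beyond the start of Cyp4a14 and on the opposite strand, and 19.8 kb before Cyp4a10. In PF its level was 0, 0.0968 and 0.265 FPKM. The AF libraries held 0, 1.37 and 0.180 FPKM, the libraries with MNA 0, 0.818 and 0.168 FPKM, and the groups overlapped. None of 4486 circRNAs in the circRNA table came from the 4 genes, in libraries with 1588 to 2545 back-splice junction reads each. In the gene table, the terms PPAR signaling pathway, arachidonic acid metabolism and fatty acid degradation were attached to 3 of the 4 genes, all but Cyp4a12b.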

How the data were processed

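Gene levels came from a table of FPKM that the authors made with StringTie. It is rounded to 2 decimals and holds 52151 entries, each of which can merge overlapping genes (437 merge at least 2 coding genes). Entries without a known transcript or a name (25806) were left out of all tests. A lncRNA table gave FPKM and read coverage (signal) of each transcript as deposited by the authors, and a circRNA table gave junction read counts as deposited; its 9 columns of normalized values were not used. The submitters' processing notes name cutadapt 1.9, FastQC, HISAT2, StringTie 1.3.4, edgeR and TopHat without roles, and the genome build is not given in the sources used here. Transcript identifiers were matched to GENCODE M21 (GRCm38), where 7708 of 7841 known lncRNA transcripts had the same start and end. Coding sequences come from that annotation, and the RefSeq promoter table matched 0 of the 4 genes.

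Levels were tested as log2(FPKM + 1) with limma 3.58.1 (lmFit, eBayes with trend; R 4.3.3) over genes averaging 0.5 FPKM or more in the 6 libraries compared, with Benjamini-Hochberg adjustment. Calls used an unadjusted p under 0.05 and a log2 ratio of group mean FPKMs above 1 or below -1, as in the study's methods. Fold changes of members are ratios of mean FPKM. The tables give no gene counts, so precision was judged from the spread between libraries. The scripts were tested on simulated data. Tables, sequences and figures were made with Python 3.11.15, pandas 2.3.3, numpy 2.4.6 and matplotlib 3.10.9.

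Lists were PPAR alpha targets, its receptor and partners, male-biased, female-biased and signalling genes of the growth hormone axis, other Cyp4 genes, omega-oxidation partners and cell type markers. The 4 genes and these lists were chosen with earlier results of these data known. In each list the called genes were named, at most 8 a comparison by the smallest p, beside Ppara, Rxra, Ghr, Stat5b, the other Cyp4 genes at 0.5 FPKM or more, and the 3 genes most like each member. Ehhadh, Pdk4, Ppargc1a, Cyp7b1, Cspg5, Moxd1, Eci2, Cyp2e1, Cd36, Bcl6 and Por were named after their values were seen. Of the listed genes, 1 is not reported here. Ech1, Crot, Acot2, Mup20, Gstp1 and Sult2a1 had no entry of their own. Alternatives were a pseudocount of 0.1, no minimum, a minimum of 2 FPKM, scaling to equal medians, all 9 libraries in the fit, no intensity trend, a replicate block, limma's coefficient as fold change, adjusted p, and each library left out.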

Additional observations from a re-analysis of the deposited data

How the results depend on the processing

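The log2 ratios of the 4 Cyp4a genes kept their sign in both comparisons under scaling to equal medians, as differences of mean log2(FPKM + 1) and with each library left out, and moved by less than the spread between libraries. With single libraries left out, AF against PF gave 0.63 to 1.09 for Cyp4a10, 1.68 to 2.23 for Cyp4a14, -3.53 to -2.71 for Cyp4a12a and -3.82 to -3.23 for Cyp4a12b, and AF with MNA against AF gave 0.49 to 1.00, 0.29 to 0.85, 0.54 to 1.53 and 0.92 to 1.94. Counts of calls moved more, and the cause was not tested unless the setting itself changes what is tested. In AF against PF, 527 genes were called, 1183 with no minimum, 265 with a minimum of 2 FPKM, 249 with the limma coefficient used for fold changes and 40 at an adjusted p under 0.05. In AF with MNA against AF, 242 genes were called, and 675, 81, 99 and 6 under the same settings. PPAR alpha targets called in AF against PF (1) became 2 (1 higher) with a pseudocount of 0.1, with all 9 libraries and with the replicate block. Other Cyp4 genes (0) became 1 with no minimum. Calls at an adjusted p under 0.05 in AF against PF were 0 for PPAR alpha targets, 4 male-biased, 2 female-biased, 0 signalling genes and 0 omega-oxidation partners, and in AF with MNA against AF 0 for PPAR alpha targets, male-biased and signalling genes. In that comparison the male-biased call (1) became 0 with no minimum and with equal medians, the female-biased count (0) became 1 with all 9 libraries, and the signalling call (1) became 0 with no minimum, a minimum of 2 FPKM, equal medians, all 9 libraries, limma's coefficient and the replicate block. Replicate numbers did not pair the libraries (correlations of same-numbered deviations -0.04 to 0.06), and the replicate block moved no other count by over 1.5 times. With single libraries left out, AF against PF gave 516 to 764 genes, 1 to 3 PPAR alpha targets (higher rather than lower without PF replicate 1 or 3 or AF replicate 1 or 2), 7 to 10 male-biased, 3 to 6 female-biased (3 without AF replicate 1), 0 to 1 signalling (0 without PF replicate 1 or AF replicate 1 or 2), 0 to 1 other Cyp4 (1 without AF replicate 1) and 1 to 2 omega-oxidation genes (2 without PF replicate 2 or AF replicate 3). AF with MNA against AF gave 211 to 367 genes (367 without AF replicate 3), 1 to 8 PPAR alpha targets, 0 to 4 male-biased, 0 to 1 female-biased (1 without AF replicate 3 or AF with MNA replicate 1 or 2) and 0 to 1 signalling genes (0 without AF replicate 3 or AF with MNA replicate 2 or 3, and 1 lower instead of 1 higher without AF replicate 2), and 0 to 0 for the other lists. Elovl3, Mup3, Cyp2u1, Slco1a1, C6, Nudt7, Cyp2a4 and Adh4 in AF against PF and Acot4 in AF with MNA against AF were called in all 13 alternative fits (leaving the coefficient and the adjusted p aside), and Mup7 was not in 6 of them. Levels without counts give no interval for a single library, and groups of 3 libraries limit the precision. How reads were split between Cyp4a12a and Cyp4a12b was not tested.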
